A study of Mus musculus with 6 samples.

Results

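The mouse genes of the heat shock protein and DNAJ families were examined in donor cells labelled as hematopoietic stem and progenitor cells (HSPCs). The members were the protein-coding genes whose symbols begin with Hspa, Hspb, Hspd, Hspe, Hsph or Hsp90, or with Dnaja, Dnajb or Dnajc, each with its number. GENCODE M21 annotates 72 such genes, and 67 of them were among the 24965 genes measured. Of these 67 members, 56 were tested, that is, had more than 1 FPKM (fragments per kilobase of transcript, scaled to the sequencing depth) in at least 1 library. The other 11 stayed below that level in every library, and Dnajc22, Dnajc5b, Dnajc5g, Hspb2 and Hspb3 were not analysed here.

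RNA-seq was performed on donor cells of 2 groups, WT and Hemgn-/-, with 3 libraries each. The donors were whole-body Hemgn-/- mice, made with zinc finger nucleases in C57BL/6 (CD45.2), or WT littermates, males and females between 8 and 10 weeks of age. Their bone marrow cells (20000000) were injected into CD45.1 recipients irradiated with 9 Gy, and CD45.2 cells were sorted from the recipients 6 h post-BMT (bone marrow transplantation), so both groups shared the transplantation and the irradiated host and neither was measured before it. The methods name Lin-Sca-1+c-Kit+ (LSK) cells and Smart-Seq2 cDNA, whereas the sample labels name Lin-Sca-1+ cells and TruSeq kits.

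Heat shock proteins and their J-domain partners are the chaperones that keep proteins folded. HSP70 proteins bind exposed stretches of unfolded protein in cycles of ATP hydrolysis, DNAJ proteins deliver the substrate and start the hydrolysis, and exchange factors release it again, while HSP90 acts later on selected clients and the HSP60 chaperonin encloses proteins in the mitochondrial matrix. Many of these genes are induced by heat shock factor 1 through heat shock elements, the chaperones of the endoplasmic reticulum (ER) are induced by the unfolded protein response, and HSPCs are known to be sensitive to changes in protein quality.

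The libraries held 23668015 to 28897360 fragments, recovered from the steps of the FPKM values. Hemgn, the disrupted gene, was at 5.64, 2.96 and 4.68 FPKM in WT and at 0.755, 0.913 and 1.599 FPKM in Hemgn-/- libraries (difference of −1.37 on the log2(FPKM + 1) scale, Benjamini-Hochberg adjusted p = 0.0114 by limma). Its direction held in 15 of 15 alternatives and its call in 10, with the adjusted p reaching 0.0613 when all genes above 0 FPKM were tested and 0.0733, 0.0785, 0.0711 and 0.0793 without WT replicate 1, WT replicate 3, Hemgn-/- replicate 1 and Hemgn-/- replicate 2. The paper describes the mutant allele as a short loss within the coding sequence, so the RNA level alone does not show the disruption. The paper also measured more Hemgn mRNA in myeloid and megakaryocyte-erythroid progenitors than in LSK cells. The part of cell composition in the Hemgn difference was not tested. The markers went against the labelled cell type. The 8 HSPC markers summed to 34.7 to 40.3 FPKM in WT and to 41.8 to 49.7 FPKM in Hemgn-/- libraries. Among them Kit was at 6.58 FPKM in WT and at 5.68 FPKM in Hemgn-/- libraries on average and Ly6a (Sca-1) at 9.38 and 14.7 FPKM, and Cd34 was called higher (8.08 and 11.4 FPKM, adjusted p = 0.0427). The 9 granulocyte markers summed to 63443 to 69113 FPKM in WT and to 39792 to 42058 FPKM in Hemgn-/- libraries. Most of this was Ngp (44876 and 27132 FPKM on average) and Ltf (9860 and 6207 FPKM). These are genes of later granulocyte stages, which a lineage-negative sort would largely leave out, whereas Elane, Mpo and Prtn3 are also expressed in progenitors. No marker of the lists used was at 0 in any library. The groups are therefore named below by genotype and not as HSPCs. Of the markers tested, 4 of 7 erythroid and 6 of 9 granulocyte genes were lower in Hemgn-/- libraries with an adjusted p under 0.05, and 3 of 6 B cell genes, 2 of 5 plasmacytoid dendritic cell genes, 1 of 7 T and NK cell genes and 1 of 8 HSPC genes were higher. Of 6 macrophage genes 2 were higher and 2 lower, and 0 of 4 endothelial genes were called. Over all genes tested, 4.37% were called higher and 2.09% lower. The summed erythroid level ran from 454.3 to 541.7 FPKM in WT and from 27.8 to 43.0 FPKM in Hemgn-/- libraries, and the summed B cell level from 1157 to 1216 and from 1378 to 1550.2 FPKM. In these bulk libraries fewer cells of a type and less RNA per cell cannot be told apart, and the part of these markers in the differences given here was not tested.

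In 5 members the mean over all libraries was 100 FPKM or more. In order they were Hsp90ab1, the constitutive cytosolic HSP90, Hspa5 (BiP), the HSP70 of the ER, Hspa8 (HSC70), the constitutive cytosolic HSP70, Hsp90aa1, the inducible cytosolic HSP90, and Hspd1 (HSP60), the mitochondrial chaperonin. Together they made up 45.0 to 48.0% of the summed FPKM of all members in each library. Another 21 members lay between 10 and 100 FPKM, 25 between 1 and 10, and 16 under 1. The FPKM ranges of neighbours at the top of this order overlapped in WT libraries for Hsp90ab1 and Hspa5, whereas the WT values of Hspa5 lay above all those of Hspa8, those of Hspa8 above all those of Hsp90aa1, and those of Hsp90aa1 above all those of Hspd1.

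**Figure D1:**
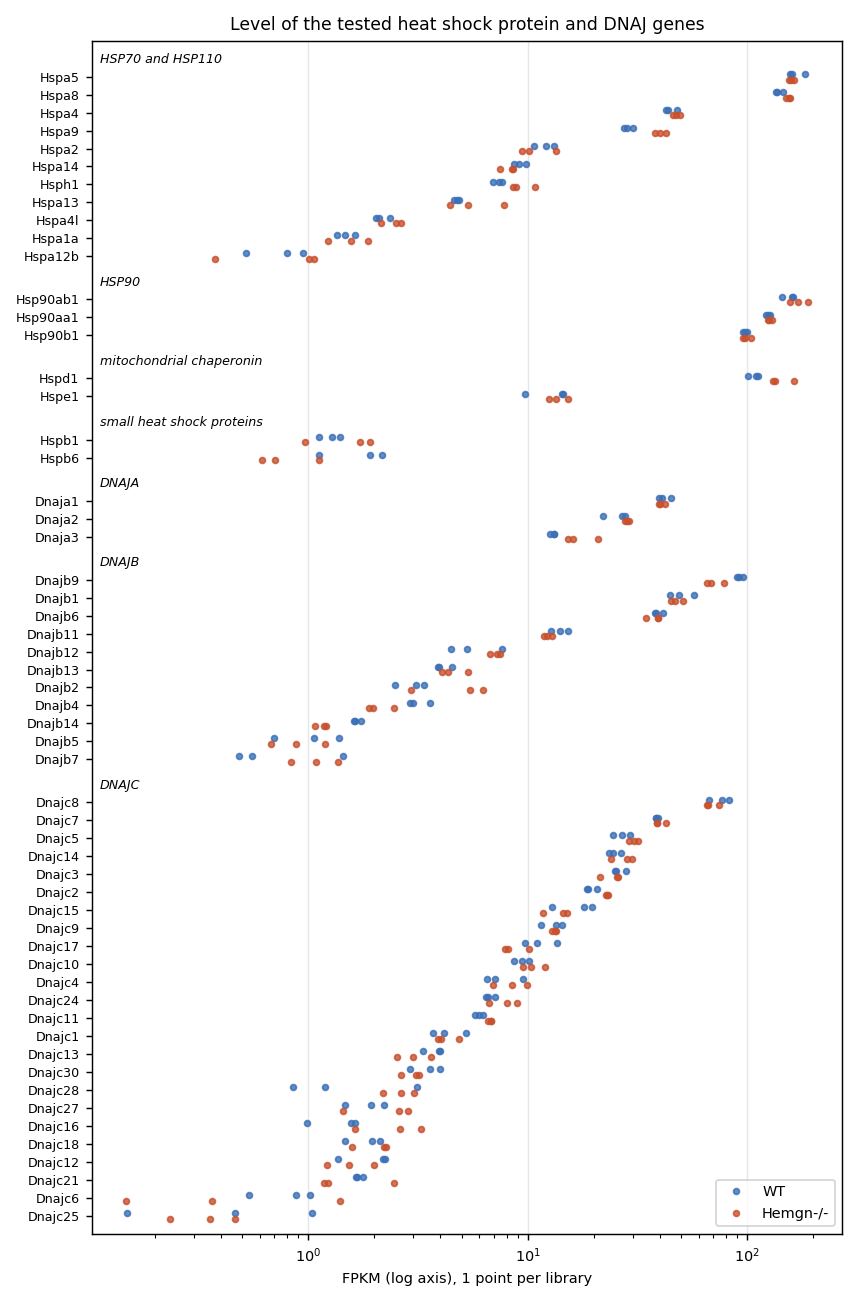
FPKM of the 56 tested members in each library, on a log axis, grouped by family and ordered by mean level, with WT libraries in blue and Hemgn-/- libraries in red. The families span from Hsp90ab1, at 144.6 FPKM and above in every library, to Dnajc6 and Dnajc25, whose means were under 1 FPKM, and for most members the red and blue points overlap.

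Only 3 of the 56 tested members differed between the genotypes at an adjusted p under 0.05 (limma, Benjamini-Hochberg over the 13739 genes tested), against 6.46% of all genes tested. Hspa9 and Hspd1, both of the mitochondrial matrix, were higher in Hemgn-/- libraries (4.37% of all genes were called higher), and Dnajb9, of the ER, was lower (2.09% of all genes were called lower). The share of members called was thus near that of all genes. All 3 calls had no overlap of the groups, as had 11 further members, which makes 9 members higher and 5 lower without overlap, where 19.2% and 8.18% of all genes tested were so and 27.4% in either direction. At an unadjusted p under 0.05 there were 11 members, against 21.4% of all genes. The differences of the tested members ran from −0.58 (Hspb6) to 0.54 (Dnajc16) with a median of 0.04, against a median of 0.09 for all genes. Here and below a difference is Hemgn-/- minus WT of log2(FPKM + 1), a scale that understates changes of genes near 1 FPKM. At the study's own thresholds, an unadjusted p under 0.05 with a 1.5-fold difference, no member was called when the fold was taken on this scale (0 higher and 0 lower, against 4.1% and 2.74% of all genes and 6.83% in either direction). With the fold taken as the ratio of mean FPKM instead, a rule added after seeing the data, 2 were higher (Dnajc16 with a ratio of 1.80 and Dnajb2 with 1.64) and 1 was lower (Hspb6 with 0.469), against 9.32% of all genes in either direction, and each of these 3 had a mean under 5 FPKM.

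The background itself moved with the scaling. The deposited values gave 600 higher and 287 lower genes, whereas median-ratio scaling gave 342 and 387, quantile normalization 368 and 346, and rescaling to the same FPKM total 1049 and 238.

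The 95% interval of the fold, which is of FPKM + 1 and so is narrower than that of FPKM for members near 1 FPKM, lay within 1.5-fold in either direction for 35 of the 56 tested members (62.5%, against 49.2% of all genes tested), 34 of which were not called. Among the 26 members with a mean of at least 10 FPKM this held for 21 (80.8%, against 76.6% of all genes at that level). The exceptions were Hspa9, Hspd1, Dnaja3, Dnajc15 and Dnajc17, whose intervals reached past 1.5-fold in 1 direction.

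**Figure D2:**
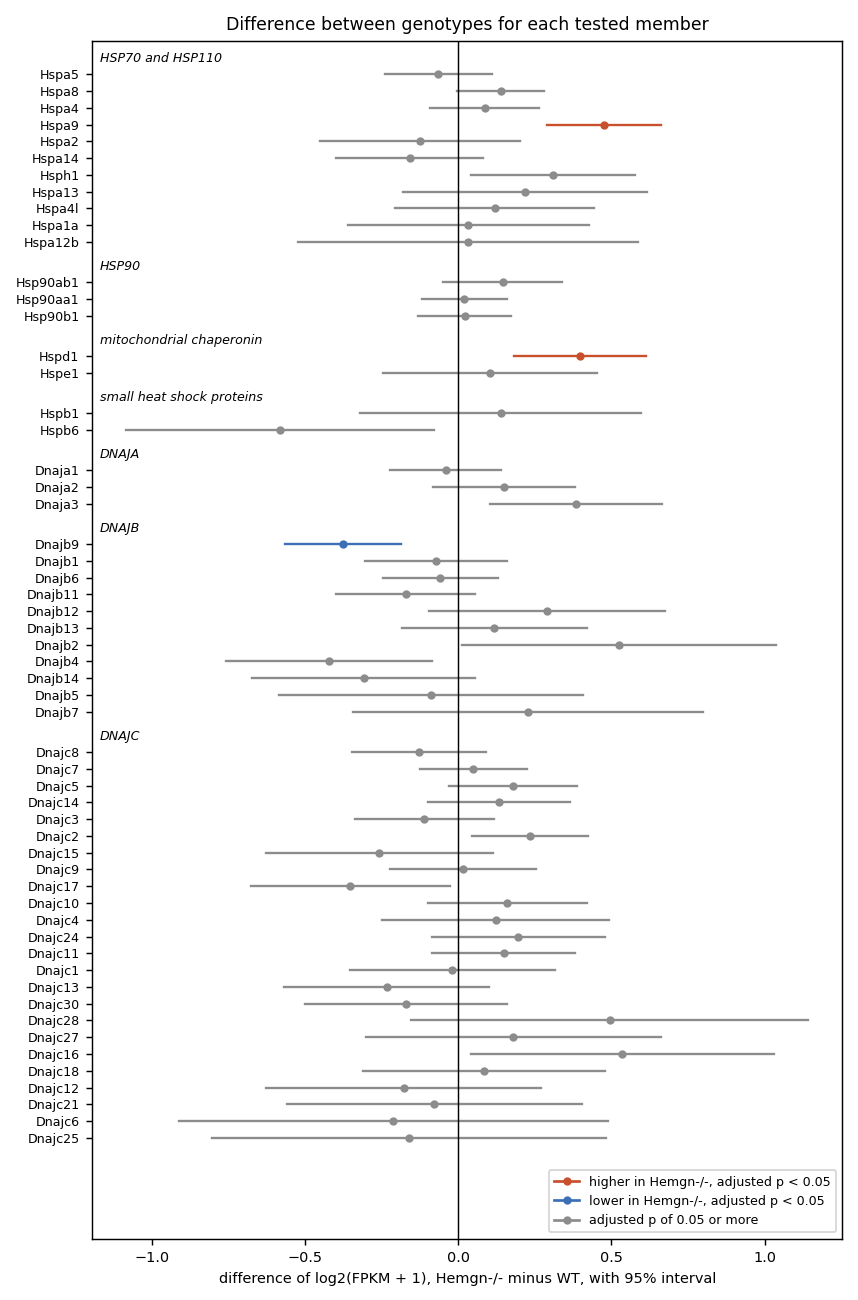
Difference of log2(FPKM + 1) between Hemgn-/- and WT libraries for each tested member, grouped by family as before, with the 95% interval from limma. Hspa9 (0.48) and Hspd1 (0.40), in red, and Dnajb9 (−0.38), in blue, are the members with an adjusted p under 0.05, and the grey intervals widen toward the members with the lowest levels.

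The mitochondrial members held both of the higher calls. Hspa9 (mortalin) is the HSP70 of the mitochondrial matrix, where it pulls in and folds imported proteins. It was at 28.4, 27.5 and 30.1 FPKM in WT and at 42.8, 38.1 and 39.9 FPKM in Hemgn-/- libraries. All Hemgn-/- values lay above all WT values. The difference was 0.48 (standard error, SE, 0.082, limma adjusted p = 0.0118), a fold of 1.39 with a 95% interval from 1.22 to 1.58. Without WT replicate 1 the adjusted p was 0.0635, without Hemgn-/- replicate 3 it was 0.0726 and without the eBayes trend it was 0.0647. The gene (ENSMUSG00000024359) lies at chr18:34937414-34954357 on the minus strand of GRCm38.

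Hspd1 forms the chaperonin ring that encloses folding proteins in the matrix. The gene (ENSMUSG00000025980) lies at chr1:55077835-55088243 on the minus strand. It was at 112, 109 and 100.8 FPKM in WT and at 162, 131 and 133 FPKM in Hemgn-/- libraries. The groups did not overlap, and Hemgn-/- replicate 1 stood above the other two. The difference was 0.40 (SE 0.094, limma adjusted p = 0.0429), a fold of 1.32 with a 95% interval from 1.14 to 1.53. This call was lost with any 1 of the 6 libraries left out, with adjusted p-values from 0.0853, without Hemgn-/- replicate 1, to 0.158, without WT replicate 3, and it was also lost after median-ratio scaling (0.132) and quantile normalization (0.0870), with all genes above 0 FPKM tested (0.121) and without the eBayes trend (0.148).

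Hspe1 (HSP10) is the lid of the Hspd1 ring, and the genes are neighbours on chromosome 1 that are transcribed away from each other. Hspe1 was at 14.3, 9.76 and 14.4 FPKM in WT and at 12.5, 15.2 and 13.4 FPKM in Hemgn-/- libraries. The groups overlapped, with WT replicate 2 as the lowest. The difference was 0.10 (SE 0.15, limma adjusted p = 0.740), a fold of 1.07 with a 95% interval from 0.843 to 1.37, and without WT replicate 2 it was −0.07. The ratio of Hspd1 to Hspe1 ran from 6.99 to 11.2 in WT and from 8.64 to 12.96 in Hemgn-/- libraries, which is a difference of 0.29 in log2 (p = 0.4, exact permutation test, two-sided, where 0.1 is the smallest p that 3 libraries against 3 allow).

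Both genes have processed copies elsewhere in the genome with which fragments can be shared. Hspd1-ps3 was at 3.44 ± 0.297 FPKM in WT and at 4.53 ± 0.382 FPKM in Hemgn-/- libraries, and Hspe1-ps2 at 2.55 ± 1.98 and 4.01 ± 1.03 FPKM (SD, n = 3 each, neither past the adjusted threshold). For Hspe1 such a copy was thus a larger share of the parent's level than for Hspd1, so the value of Hspe1 is the less certain of the pair. Exons of Hspd1 and Hspe1 also overlap on opposite strands, and the strand setting of the counting is not given in the sources used here.

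Dnaja3 (TID1) is the J protein that works with Hspa9 in the matrix. It was at 13.2, 12.6 and 13.1 FPKM in WT and at 20.9, 15.3 and 16.04 FPKM in Hemgn-/- libraries. The groups did not overlap, but the difference of 0.38 (SE 0.12) did not pass over all genes (limma adjusted p = 0.112). Its exons overlap those of Coro7 and Vasn. Of the 8 mitochondrial members tested, 2 were called higher (25.0%, against 4.37% of all genes) and 0 lower. Values above 0 were found in 6 of the 8, against 8653 of the 13739 genes tested. The median difference of the 8 was 0.27, against 0.09 for all genes tested. The list was chosen with earlier results of these data known and was not tested as a set, so its share of calls is descriptive only. Dnajc11, which associates with the cristae-organizing complex of the inner membrane, was at 5.98 ± 0.266 FPKM in WT and at 6.74 ± 0.152 FPKM in Hemgn-/- libraries, without overlap (limma adjusted p = 0.456), and Dnajc15, a J protein of the import motor, was at 16.8 ± 3.53 and 13.8 ± 1.82 FPKM (SD, n = 3 each). Dnajc19, another J protein of the import motor, stayed at or below 0.697 FPKM and was not tested. The list also held Dnajc28 (difference of 0.49, the highest in it, limma adjusted p = 0.366) and Dnajc30 (difference of −0.17, limma adjusted p = 0.546), both with overlap. The summed FPKM of the 9 mitochondrial members was 196.1, 183 and 192 in WT and 263, 228 and 229.9 in Hemgn-/- libraries, of which Hspd1 alone accounted for over 100 FPKM in each. Without Hspd1 it was 83.8, 73.8 and 91.2 in WT and 100.5, 96.9 and 96.6 in Hemgn-/- libraries, also without overlap.

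**Figure D3:**
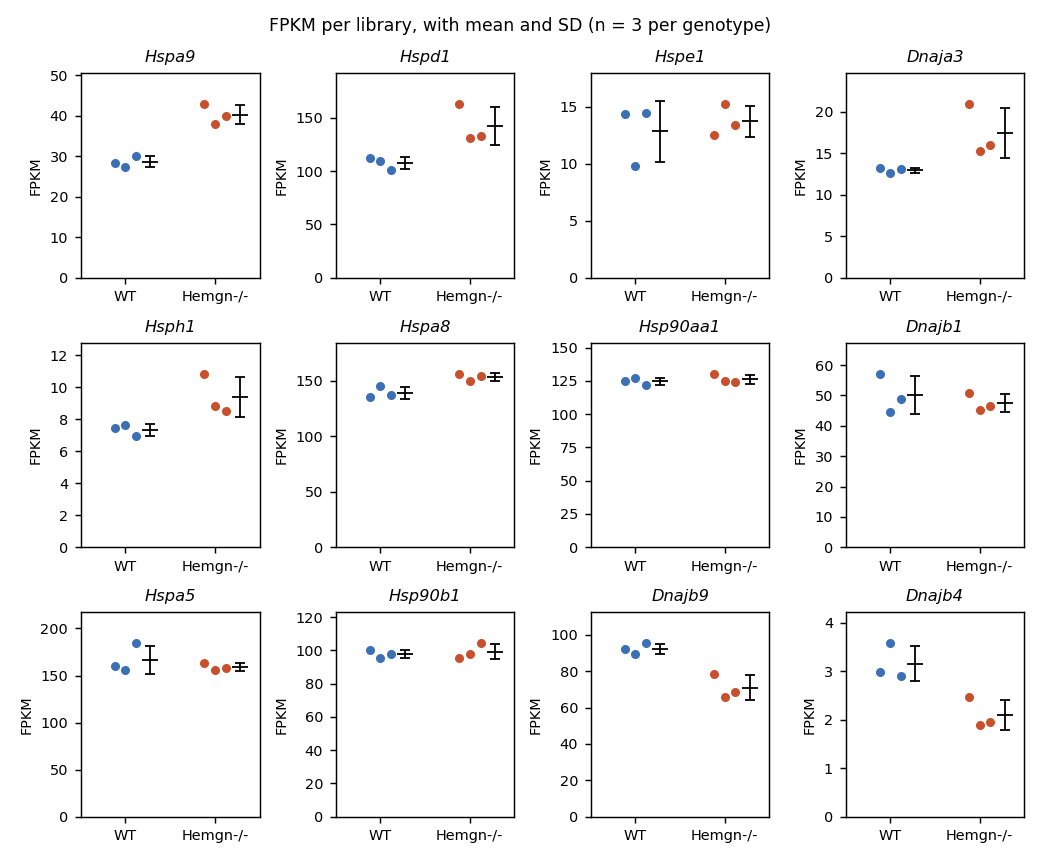
FPKM of 12 members in each library (points), with the mean and SD at the right of each group (n = 3 per genotype) and axes that start at 0. Hspa9 and Hspd1 are higher in every Hemgn-/- library than in any WT library and Dnajb9 is lower in every one, while Hsp90aa1, Hspa5, Hsp90b1, Dnajb1 and Hspe1 overlap.

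Hspa9 was also set against the HSP70 proteins of other compartments within each library, which no scaling between libraries can move. Its FPKM was 0.189 to 0.220 of that of Hspa8 in WT and 0.254 to 0.274 in Hemgn-/- libraries, a difference of 0.35 in log2. Against Hspa5 it was 0.164 to 0.178 in WT and 0.245 to 0.261 in Hemgn-/- libraries, a difference of 0.55 in log2. Neither ratio overlapped between the genotypes, and both had the smallest p possible (p = 0.1, exact permutation test, two-sided, 0.15 after adjustment over the 3 ratios computed). Hspa9 was already called in these same libraries and the other genes were seen to differ little. The ratios thus restate that call and are not separate support for it.

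Among the ER members the single call was a lower one. Dnajb9 (ERdj4) is a J protein of Hspa5 that helps dispose of misfolded ER proteins and holds back the stress sensor IRE1, and it is itself induced by the unfolded protein response. The gene (ENSMUSG00000014905) lies at chr12:44205559-44210326 on the minus strand. It was at 92.1, 89.4 and 95.2 FPKM in WT and at 78.7, 65.6 and 68.6 FPKM in Hemgn-/- libraries. The groups did not overlap. The difference was −0.38 (SE 0.083, limma adjusted p = 0.0329), a fold of 0.770 with a 95% interval from 0.675 to 0.878. Without Hemgn-/- replicate 1 the adjusted p was 0.0281. Without any 1 of the other 5 libraries, which are WT replicates 1, 2 and 3 and Hemgn-/- replicates 2 and 3, it ran from 0.0808 to 0.153. The call was also lost after rescaling to the same FPKM total (0.0810), with all genes above 0 FPKM tested (0.0766), without the eBayes trend (0.130) and with the replicate number as a block (0.0529).

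The 2 main ER chaperones showed no such difference. Hspa5 was at 159.7, 156 and 184 FPKM in WT and at 164, 155 and 158 FPKM in Hemgn-/- libraries, a fold of 0.956 with a 95% interval from 0.847 to 1.08. Hsp90b1 (GRP94), the HSP90 of the ER, was at 100.1, 95.3 and 97.6 FPKM in WT and at 95.4, 97.9 and 104 FPKM in Hemgn-/- libraries, a fold of 1.01 with an interval from 0.914 to 1.13. Both genes overlapped between the groups, and both intervals ended below the lower limit of that of Hspa9. The differences of both genes were so small that their sign changed under some alternatives.

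The other ER members lay on either side of 0. Dnajb11 (ERdj3), which binds substrates for Hspa5, was at 14.0 ± 1.27 FPKM in WT and at 12.3 ± 0.555 FPKM in Hemgn-/- libraries (limma adjusted p = 0.373). Dnajb14, anchored in the ER membrane, was at 1.66 ± 0.0612 and 1.15 ± 0.0705 FPKM without overlap (limma adjusted p = 0.314), and its exons overlap those of 2 other genes. Dnajc10 (ERdj5), a disulfide reductase, was at 9.37 ± 0.722 and 10.6 ± 1.21 FPKM (SD, n = 3 each). The ER list held Hspa5, Hspa13, Hsp90b1, Dnajb9, Dnajb11, Dnajb12, Dnajb14, Dnajc1, Dnajc3 and Dnajc10. It left out other J proteins that have been placed in the ER membrane, so the counts below depend on this choice. Among these Dnajc14 (0.13), Dnajc16 (0.54) and Dnajc18 (0.09) had differences above 0 and Dnajc25 (−0.16) below, none of them called. Of the 10 ER members, all of which were tested, 0 were called higher and 1 lower. Of these 10, 4 had values above 0 (against 8653 of the 13739 genes tested) and 6 below, and the median was −0.04. Their summed FPKM was 417.9, 410.8 and 439 in WT and 402, 382 and 399.7 in Hemgn-/- libraries. The groups overlapped once Dnajb9 was left out (326, 321 and 344 against 324, 316 and 331 FPKM) and when the sum was taken per 1000 FPKM of each library (1.11 to 1.17 against 1.07 to 1.17).

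**Figure D4:**
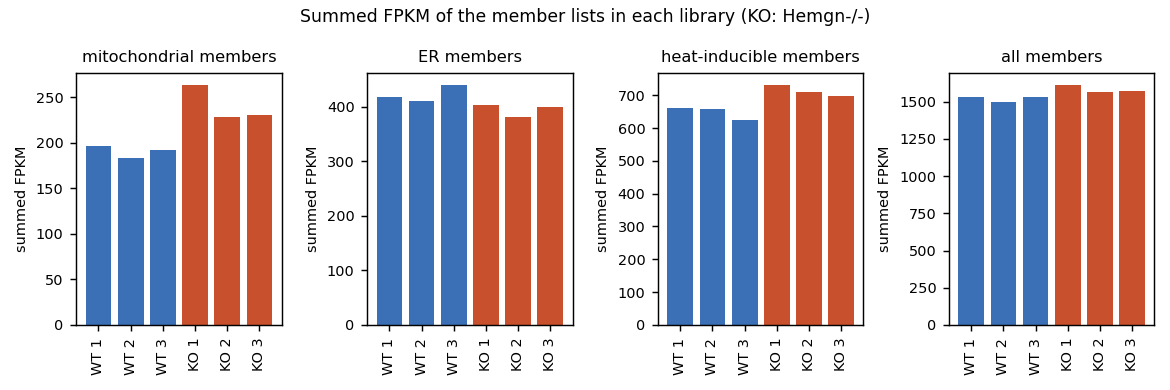
Summed FPKM of the mitochondrial, ER and heat-inducible members and of all 67 members in each library (bars, from 0), with WT in blue and Hemgn-/- (KO) in red. The mitochondrial sum is 183 to 196.1 FPKM in WT and at 228 to 263 FPKM in Hemgn-/- libraries, the ER sum is 410.8 to 439 and 382 to 402 FPKM, and the sum of all members is 1499 to 1535 and 1563 to 1611 FPKM.

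The promoters of the ER members were searched for the ER stress element, through which the unfolded protein response acts, which is CCAAT and CCACG with 9 free bases between them, on either strand (the motif was added after the values had been seen). In the 250 bases before the start site it was present in 37 of 32851 RefSeq promoter windows of mouse (0.113%), and in 3 of the 73 windows of the 56 members that have one. Those without a window were Dnajc12, Dnajc30, Hspa9, Hspa8, Hsp90ab1, Hspa13, Dnajc5, Dnajc2, Dnajc18, Dnajc11 and Hsp90aa1. The 3 windows belong to Hspa5, Hsp90b1 and Dnajc3 (p58IPK), a J protein that restrains the kinase PERK. They are shown since they carry the element letter for letter whereas the windows of Dnajb9 do not, which says only that these letters are not in its windows. Capitals mark the fixed letters of the element, and Hsp90b1 holds it once in each orientation. The sequences are from RefSeq on GRCm38.p6, at chr2:34772020-34772049 (plus strand) for Hspa5, chr10:86705515-86705694 (minus strand) for Hsp90b1 and chr14:118937782-118937901 (plus strand) for Dnajc3.
Hspa5: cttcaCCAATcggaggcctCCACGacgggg
Hsp90b1: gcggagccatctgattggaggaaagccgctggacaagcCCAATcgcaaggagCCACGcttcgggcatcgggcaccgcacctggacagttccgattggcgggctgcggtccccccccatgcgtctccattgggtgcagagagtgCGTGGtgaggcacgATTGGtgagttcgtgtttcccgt
Dnajc3: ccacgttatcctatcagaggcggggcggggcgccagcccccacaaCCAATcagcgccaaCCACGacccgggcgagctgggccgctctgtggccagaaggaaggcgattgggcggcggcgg

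The 3 genes with these sequences overlapped between the genotypes. Dnajc3 was at 26.1 ± 1.64 FPKM in WT and at 24.1 ± 2.47 FPKM in Hemgn-/- libraries (SD, n = 3 each), a fold of 0.926 with a 95% interval from 0.791 to 1.09, and the values of Hspa5 and Hsp90b1 are those given above.

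The heat shock element was searched in the same windows. As 3 units (GAA, TTC and GAA, or TTC, GAA and TTC, each with 2 free bases between units, on either strand) it was present in 0.466% of all windows and in 4 of the 73 member windows, which belong to Hspd1, Hspe1 and Dnajb6, a J protein that keeps aggregation-prone proteins soluble. The windows of Hspd1 and Hspe1 cover nearly the same bases on opposite strands and hold 1 shared element, in which 4 units alternate, and both Dnajb6 windows hold the same element, so the 4 windows come from 2 sequences. They are shown with the units in capitals, at chr1:55088053-55088082 (plus strand, as read toward Hspe1) and chr5:29735844-29735873 (plus strand).
Hspe1: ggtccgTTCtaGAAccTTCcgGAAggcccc
Dnajb6: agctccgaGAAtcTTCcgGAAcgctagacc

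The element shared by Hspd1 and Hspe1 stands before the RefSeq start sites of both genes. It lies within the longer GENCODE span of Hspd1 given above. Hspd1 was called higher and Hspe1 overlapped, but their ratio did not separate the genotypes (p = 0.4, exact permutation test). The interval of the Hspe1 fold (0.843 to 1.37) includes the Hspd1 fold of 1.32, so a difference between the 2 genes is not shown. The part of the element was not tested. Dnajb6 was at 39.2 ± 1.75 FPKM in WT and at 37.7 ± 2.57 FPKM in Hemgn-/- libraries (SD, n = 3 each), a fold of 0.960 with a 95% interval from 0.843 to 1.09.

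As 2 units (GAANNTTC or TTCNNGAA, on either strand), which every 3-unit match also contains, the element was present in 12.8% of all windows and in 15 of the 73 member windows (20.5%), of 13 members. Those of the stress-inducible HSP70 pair Hspa1a and Hspa1b and of Hsph1 (HSP110), an exchange factor of HSP70, are shown because these genes are the textbook targets of heat shock factor 1. They lie at chr17:34972227-34972286, chr17:34959309-34959368 and chr5:149636351-149636380, all on the minus strand, with the units in capitals.
Hspa1a: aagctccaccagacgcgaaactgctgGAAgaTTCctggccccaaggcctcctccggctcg
Hspa1b: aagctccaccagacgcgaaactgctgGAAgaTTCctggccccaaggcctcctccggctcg
Hsph1: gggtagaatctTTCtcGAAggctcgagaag

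The Hspa1a and Hspa1b windows were identical at 247 of the 250 bases before the start (98.8%), and their transcripts are near-identical too, so that fragments can be divided between them and both values are uncertain. Hspa1a was at 1.62, 1.47 and 1.35 FPKM in WT and at 1.23, 1.56 and 1.87 FPKM in Hemgn-/- libraries, with overlap. These stand for 100 to 160 fragments in each library. Hspa1b was listed at 0.153 to 0.425 FPKM in WT and at 0.164 to 0.519 FPKM in Hemgn-/- libraries and was not tested.

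Hsph1 was at 7.43, 7.65 and 6.93 FPKM in WT and at 10.8, 8.79 and 8.53 FPKM in Hemgn-/- libraries. The groups did not overlap, and the difference of 0.31 (SE 0.12) did not pass over all genes (limma adjusted p = 0.174). Hspa8 was at 135, 145 and 137 FPKM in WT and at 156, 149.7 and 154 FPKM in Hemgn-/- libraries, again without overlap. Its fold was 1.10 with a 95% interval from 0.998 to 1.21 (limma adjusted p = 0.242), and small nucleolar RNA genes lie within its exons. Hspa4l, another HSP110, was at 2.17 ± 0.166 and 2.44 ± 0.258 FPKM (SD, n = 3 each), with overlap.

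Of the cytosolic HSP90 pair, Hsp90aa1 was at 125, 127 and 122 FPKM in WT and at 130.2, 125 and 124 FPKM in Hemgn-/- libraries. This is a fold of 1.01 with a 95% interval from 0.920 to 1.11. Hsp90ab1 was at 162, 159 and 144.6 FPKM in WT and at 157, 189.6 and 170.1 FPKM in Hemgn-/- libraries, a fold of 1.11 with an interval from 0.967 to 1.27. Both genes overlapped between the groups, and neither difference passed (limma adjusted p = 0.891 and 0.377).

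The J proteins that serve the cytosolic HSP70 varied among themselves. Dnajb1 (HSP40), the main inducible one, was at 57.1, 44.6 and 49.0 FPKM in WT and at 50.9, 45.1 and 46.6 FPKM in Hemgn-/- libraries, and Dnaja1 was at 41.9 ± 2.80 and 40.7 ± 1.52 FPKM (SD, n = 3 each). Both overlapped between the groups, with folds of 0.952 (95% interval from 0.810 to 1.12) and 0.972 (0.856 to 1.10). Dnajb4, close in sequence to Dnajb1, was at 2.99, 3.57 and 2.90 FPKM in WT and at 2.46, 1.89 and 1.96 FPKM in Hemgn-/- libraries. It did not overlap, and its difference of −0.42 (SE 0.15) did not pass (limma adjusted p = 0.142). Dnajb2, which binds ubiquitin chains, was at 3.35, 2.48 and 3.11 FPKM in WT and at 2.95, 5.47 and 6.25 FPKM in Hemgn-/- libraries, with overlap (limma adjusted p = 0.225). Dnaja2 was at 25.5 ± 3.08 and 28.2 ± 0.598 FPKM without overlap (limma adjusted p = 0.449). Over the 11 tested DNAJB members 0 were called higher and 1 lower (Dnajb9), with a median of −0.07. Over the 3 tested DNAJA members 0 were called either way at the adjusted threshold. Of these, 1 (Dnaja3) had an unadjusted p under 0.05 (against 21.4% of all genes).

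A list of 13 members known to be heat-inducible held Hspa1a, Hspa1b, Hspa8, Hsph1, Hspa4l, both cytosolic HSP90 genes, Hspb1, Hspd1, Hspe1, Dnaja1, Dnajb1 and Dnajb4. Over its 12 tested genes, 1 was called higher (Hspd1) and 0 lower. Values above 0 were found in 9 of the 12, against 8653 of the 13739 genes tested. The median difference was 0.11, against 0.09 for all genes. Without the mitochondrial pair Hspd1 and Hspe1, 0 of 10 were called at the adjusted threshold, and the median was 0.08. With an unadjusted p under 0.05 there were 2 (against 21.4% of all genes). These were Hsph1 and Dnajb4, which lay on opposite sides of 0. The summed FPKM of the list was 662, 657 and 623 in WT and 730.5, 711 and 699 in Hemgn-/- libraries. Without Hspd1 and Hspe1 it was 507.7 to 537.7 in WT and 552.4 to 564.4 in Hemgn-/- libraries, also without overlap. Both sums are of FPKM as deposited, where the median difference of all genes was itself above 0 (0.09). That median was 0.008 with median-ratio scaling and 0.18 when the libraries were given equal FPKM totals. Whether the separation of the sums goes beyond this shift of all genes was not tested. Immediate early genes, which respond to handling and other stimuli within minutes, stood higher in the Hemgn-/- libraries. Of 11, 5 were called higher at the adjusted threshold (against 4.37% of all genes) and 0 lower. Their summed levels ran from 5664 to 5904 FPKM in WT and from 6751 to 7360.4 FPKM in Hemgn-/- libraries, and their relation to the chaperones was not tested.

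Small heat shock proteins, which hold unfolded proteins without ATP, were scarce. Hspb1 (HSP27) was at 1.39, 1.29 and 1.12 FPKM in WT and at 1.91, 0.963 and 1.71 FPKM in Hemgn-/- libraries, with overlap. Hspb6 (HSP20) was at 1.91, 1.12 and 2.17 FPKM in WT and at 0.618, 1.11 and 0.707 FPKM in Hemgn-/- libraries. The closest values of Hspb6 in the 2 groups differed by less than 0.01 FPKM, and its difference of −0.58 (SE 0.22), the lowest of the tested members, did not pass (limma adjusted p = 0.174). Exons of Hspb6 overlap those of 3 other genes. Hspb7, Hspb8 and Hspb9 were each listed at 0 in at least 1 library, and Hspb11, which carries the symbol but is a component of intraflagellar transport, was at 0.105 FPKM in both groups. The remaining members that were not tested, Hspa12a, Hspa1l, Dnaja4, Dnajb3 and Dnajb8, reached at most 0.727 FPKM (Dnajb3) in any library.

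The DNAJC proteins share the J domain with few other features and serve separate processes. Of 24 tested, 0 were called in either direction at the adjusted threshold and 3 had an unadjusted p under 0.05 (against 21.4% of all genes). Values above 0 were found in 13 of the 24, against 8653 of the 13739 genes tested. The differences ran from −0.35 to 0.54 with a median of 0.03. Dnajc2 (MPP11), a J protein at the ribosome, was at 20.7, 18.8 and 18.6 FPKM in WT and at 22.7, 22.9 and 23.2 FPKM in Hemgn-/- libraries, without overlap (difference of 0.23, limma adjusted p = 0.149). Its ribosomal partner Hspa14 was at 9.19 ± 0.591 and 8.14 ± 0.607 FPKM, without overlap in the other direction (limma adjusted p = 0.441). Dnajc16 was at 1.63, 0.990 and 1.56 FPKM in WT and at 3.26, 1.64 and 2.62 FPKM in Hemgn-/- libraries, and although its difference of 0.54 was the highest of the tested members, the nearest libraries were separated by less than 0.01 FPKM (limma adjusted p = 0.199). Dnajc17, a splicing-related J protein, was at 9.72, 11.0 and 13.5 FPKM in WT and at 7.88, 10.1 and 8.15 FPKM in Hemgn-/- libraries, with overlap (limma adjusted p = 0.198). Dnajc8, also linked to splicing and the most abundant of the subfamily, was at 75.4 ± 8.10 and 68.8 ± 4.85 FPKM (SD, n = 3 each), with overlap.

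The co-chaperones and folding genes outside the symbol rule were examined as partners. Of 75 tested, 1 was higher and 1 lower at the adjusted threshold (against 4.37% and 2.09% of all genes), and their median difference was 0.05. Cct6a, a subunit of the cytosolic chaperonin TRiC, was at 42.6, 47.6 and 42.6 FPKM in WT and at 57.0, 56.6 and 56.4 FPKM in Hemgn-/- libraries (difference of 0.35, SE 0.075, limma adjusted p = 0.0287). Herpud1, an ER membrane protein of the degradation pathway that the unfolded protein response induces, was at 127, 127 and 146 FPKM in WT and at 108, 94.7 and 104 FPKM in Hemgn-/- libraries (difference of −0.38, SE 0.083, limma adjusted p = 0.0332). Neither gene overlapped between the groups. The call of Cct6a was lost (0.0791 to 0.114) without any 1 library but WT replicate 2, whose omission gave 0.0282, after median-ratio scaling (0.107) and quantile normalization (0.0705), without the eBayes trend (0.118) and with the replicate block (0.0635). That of Herpud1 was lost without any 1 of the 6 libraries (0.0693, without Hemgn-/- replicate 1, to 0.134, without Hemgn-/- replicate 3), with all genes above 0 FPKM tested (0.0862), after rescaling to the same FPKM total (0.0762) and without the eBayes trend (0.136).

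**Figure D5:**
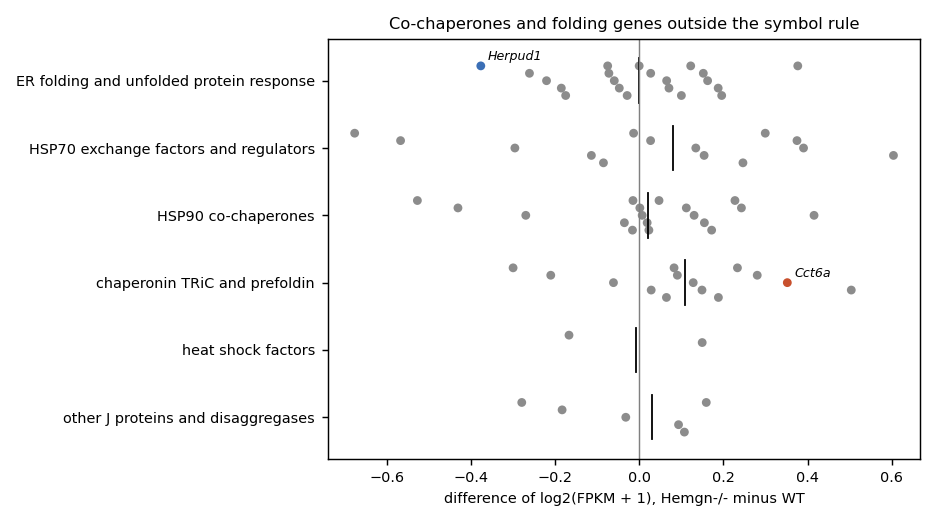
Difference of log2(FPKM + 1), Hemgn-/- minus WT, for the 75 tested partners (points) by functional list, with the median of each list as a vertical bar. Cct6a at 0.35 (red) and Herpud1 at −0.38 (blue) are the only points with an adjusted p under 0.05, and the list medians lie between −0.01 and 0.11.

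Among the exchange factors, the pair that serves Hspa9 was unlike in values. Grpel1 was at 29.5, 27.7 and 28.7 FPKM in WT and at 26.2, 34.0 and 27.9 FPKM in Hemgn-/- libraries, with overlap. Grpel2 was at 4.63, 3.34 and 3.89 FPKM in WT and at 5.93, 5.65 and 8.09 FPKM in Hemgn-/- libraries, without overlap (difference of 0.60, SE 0.16, limma adjusted p = 0.0642). St13 (HIP), which stabilizes HSP70 on its substrate, was at 21.8, 19.7 and 25.4 FPKM in WT and at 29.1, 28.5 and 30.7 FPKM in Hemgn-/- libraries, without overlap (difference of 0.39, limma adjusted p = 0.0643). Bag1, an exchange factor of the cytosolic HSP70, was at 7.96, 16.2 and 7.92 FPKM in WT and at 7.59, 4.98 and 5.54 FPKM in Hemgn-/- libraries, without overlap and with WT replicate 2 far above the others (difference of −0.68, SE 0.26, limma adjusted p = 0.177). Of the 14 genes in that list 0 were called at the adjusted threshold and 3 had an unadjusted p under 0.05 (against 21.4% of all genes).

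Among the 18 HSP90 co-chaperones 0 were called at the adjusted threshold, and 5 had an unadjusted p under 0.05 (against 21.4% of all genes). Fkbp5, an immunophilin known to be induced by glucocorticoids, was at 4.95, 5.88 and 5.03 FPKM in WT and at 3.76, 3.26 and 3.98 FPKM in Hemgn-/- libraries, without overlap (difference of −0.43, limma adjusted p = 0.0875). Its relative Fkbp4 was at 37.9 ± 2.64 and 45.0 ± 2.54 FPKM (SD, n = 3 each), without overlap in the other direction (limma adjusted p = 0.140). Ptges3 (p23), which closes the HSP90 cycle, was at 12.8, 11.9 and 12.3 FPKM in WT and at 13.4, 19.5 and 18.0 FPKM in Hemgn-/- libraries (difference of 0.42, limma adjusted p = 0.119).

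The regulators of these genes were examined last. Hsf1, the main heat shock factor, was at 24.1, 21.8 and 24.6 FPKM in WT and at 25.0, 27.8 and 25.7 FPKM in Hemgn-/- libraries (difference of 0.15, limma adjusted p = 0.379). The groups did not overlap, but the nearest values differed by less than 1 FPKM. Hsf2 was at 0.240 to 0.616 FPKM in WT and at 0.307 to 0.672 FPKM in Hemgn-/- libraries and was not tested. Of the 21 genes of ER folding and the unfolded protein response, 0 were called higher and 1 (Herpud1) lower, with a median near 0. Xbp1, the transcription factor that IRE1 activates by splicing, was at 111, 105 and 121 FPKM in WT and at 98.4, 89.4 and 102 FPKM in Hemgn-/- libraries, without overlap (difference of −0.22, limma adjusted p = 0.161), and gene-level FPKM does not separate its spliced form.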

How the data were processed

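FPKM values were deposited by the authors as a table of genes by 6 libraries. The submitters' processing notes name HISAT2 2.1.0, Bowtie2 2.2.3, TopHat2, HTSeq 0.6.0 and GRCm38 without their roles, and the annotation and strand setting are not given in the sources used here. Of 24965 genes, 24921 matched GENCODE M21. FPKM of low genes gave whole fragments for 95.4% of 13472 genes (tolerance 0.02), so that 1 fragment on 1 kb is worth 0.0346 to 0.0423 FPKM, and amplified fragments are not independent molecules. Genes above 1 FPKM in at least 1 library (13739) were tested with limma 3.58.1 in R 4.3.3 (lmFit, eBayes with a trend) on log2(FPKM + 1), two-sided, with Benjamini-Hochberg adjustment and a threshold of 0.05. The methods give 3 biological replicates per group. Replicates differed by more than sampling noise (chi-square per gene from 17.5 to 35.2).

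Members and lists were chosen with earlier results of these data known. Values are given for called members and partners, the heat-inducible list, the 5 most abundant members, the main ER and mitochondrial chaperones, Hsf1 and Hsf2, and members and partners named beyond these, and the sums without 1 member or per library total, were chosen after their values were seen. The 3 ratios between members were not part of the plan. Promoter windows were RefSeq's (GRCm38.p6), with 56 of 67 members matched, and protein sequences were not used here. The script was tested on simulated data.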

Additional observations from a re-analysis of the deposited data

How the results depend on the processing

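With 3 libraries per group, single calls near the threshold turned on single libraries. Over 15 alternatives of scaling, filter, model or left-out library, the direction of Hemgn, Hspa9, Hspd1, Dnajb9, Cct6a and Herpud1 stayed the same in all 15, while the call held in 10 for Hemgn (adjusted p from 0.00737 to 0.0793), 12 for Hspa9 (0.00632 to 0.0726), 5 for Hspd1 (0.0214 to 0.158), 6 for Dnajb9 (0.0149 to 0.153), 6 for Cct6a (0.0108 to 0.118) and 6 for Herpud1 (0.0145 to 0.136). Hspe1, Hspa5, Hsp90aa1, Hsp90b1, Dnaja1, Dnajb1 and Hspa1a changed sign under at least 1 alternative, each without a call. The causes were not tested. Depth limits members under 1 FPKM.

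The 2 higher members became 1 when all genes above 0 FPKM were tested, after median-ratio scaling and after quantile normalization, and 0 without the eBayes trend or at an unadjusted p under 0.05 with 1.5-fold on the log2(FPKM + 1) scale. The 1 lower member became 0 with all genes above 0 FPKM, after rescaling to the same FPKM total, without the trend, with the replicate block and at 1.5-fold on that scale. The 1 higher partner became 0 after median-ratio scaling, after quantile normalization, without the trend and with the replicate block, 4 after rescaling to the same total and 3 with limma's voom on recovered fragments. The 1 lower partner became 0 with all genes above 0 FPKM, after rescaling to the same total and without the trend, and 2 after quantile normalization and with voom. Over all genes, 600 higher genes became 309 with all genes above 0 FPKM, 342 after median-ratio scaling, 1049 after rescaling to the same total, 368 after quantile normalization and 237 without the trend, and 287 lower genes became 157 with all genes above 0 FPKM and 153 without the trend. With the 1.5-fold rule on the ratio of mean FPKM, chosen after seeing the data, 2 members were higher and 1 lower, 1 partner was higher and 2 lower, and 807 genes were higher and 474 lower. Leaving out 1 library gave 0 to 1 higher and 0 to 1 lower members, 0 to 2 higher and 0 lower partners, and 140 to 307 higher and 111 to 178 lower genes.

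Same-numbered libraries did not deviate together over all genes tested (correlations of −0.043, −0.00936 and 0.011). These correlations gave no sign that the numbers pair the libraries, but a pairing that touches few genes would not show in them. With the replicate number as a block, members were 2 higher and 0 lower, partners 0 higher and 1 lower, and all genes 410 higher and 226 lower.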
